A study of Homo sapiens with 6 samples.

Results

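RNA of the integrin and laminin chains was compared in 6 human prostate cancer cell lines. The genes were the protein-coding entries whose symbol is that of an integrin alpha chain, an integrin beta chain numbered with 1 digit, or a laminin alpha, beta or gamma chain. They numbered 37 of the 51698 entries in each deposited table: 18 integrin alpha chains, 7 integrin beta chains and 12 laminin chains. ITGB3 was not analysed here.

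The castration-sensitive lines were LNCaP, VCaP and LAPC4, which are established lines from metastatic prostate cancer. LNCaP and LAPC4 were grown in RPMI medium and VCaP in DMEM, each with 10% fetal bovine serum. Each castration-resistant line carries the name of 1 of these parents: LNCaP-abl, VCaP-CR or LAPC4-CR. Their medium was RPMI to which 10% charcoal-stripped serum had been added, which is depleted of steroids, together with 1X B27, a serum-free supplement. No other treatment was given, and each line had 1 library, so that state, medium and the history of the line cannot be told apart within a pair. Nothing in the labels says whether a resistant line is 1 clone.

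Integrins are receptors made of 1 alpha and 1 beta chain that tie cells to the extracellular matrix and signal from it. Laminins are ligands of the basement membrane, each a trimer of 1 alpha, 1 beta and 1 gamma chain. In the normal prostate, basal cells sit on a laminin-rich basement membrane through hemidesmosomes, which are built on the integrin of ITGA6 and ITGB4, and this pair is known to be reduced in many prostate carcinomas. A trimer is named by its chains in the order alpha, beta, gamma, so laminin-321 holds LAMA3, LAMB2 and LAMC1.

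Levels are given as scaled FPKM, the deposited FPKM (fragments per kilobase of gene, relative to library depth) divided by a factor per library. They are per length of the deposited gene entry, and some entries overlap other genes, so they allow only a rough comparison between genes. The libraries held 8661337 to 22433655 counts, and the resistant library of each pair was the deeper one. The share of counts in protein-coding genes was also higher in each resistant library than in its parent (62.8% to 68.3% in the parents, 68.0% to 79.5% in the resistant lines), and its part in the differences between states was not tested. All 11 luminal prostate markers examined were at 1 scaled FPKM or more in LNCaP, VCaP, VCaP-CR and LAPC4, 9 in LNCaP-abl and 10 in LAPC4-CR. The exceptions were KLK2 and KLK3 in LNCaP-abl and TMPRSS2 in LAPC4-CR. The summed level of these markers was lower in each resistant library, at 1092 and 378 in the LNCaP pair, 2543 and 1611 in the VCaP pair and 476 and 379 in the LAPC4 pair, parent first. KLK3, which encodes prostate-specific antigen, was also lower in each resistant library, at 603 and 0.668 in the LNCaP pair and 105 and 2.07 in the LAPC4 pair, and HOXB13 was at 30.5 in LAPC4 and 1.64 in LAPC4-CR. The part of these markers in the differences between states was not tested. The summed level of 10 leukocyte and platelet markers lay between 2.30 and 5.06, that of 5 endothelial markers between 1.03 and 2.80, and that of 6 basal markers between 1.27 and 5.12. The 11 fibroblast and muscle markers summed to between 2.97 and 7.77, except in VCaP-CR, where they reached 52.8 through LUM at 49.8. Of the basal markers, TP63, KRT5, KRT17 and DKK3 stayed at or under 0.455 in every library. KRT14 and KRT15 reached 1 in LAPC4-CR only, at 1.70 and 2.43 against 0.330 and 0.799 in LAPC4, and their part in the differences of that pair was not tested. In bulk RNA, fewer cells of a type and less RNA per cell cannot be told apart.

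Of the 37 chains, 8 were at 1 scaled FPKM or more in all 6 libraries, 13 in some and 16 in none. The 8 were ITGA6, ITGAE, ITGAV, ITGB1, ITGB4, ITGB5, LAMA3 and LAMC1. A mean of at least 1 over the libraries, the condition for entering the tests, was met by 14 chains: 6 alpha integrins, 3 beta integrins and 5 laminins.

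**Figure D1:**
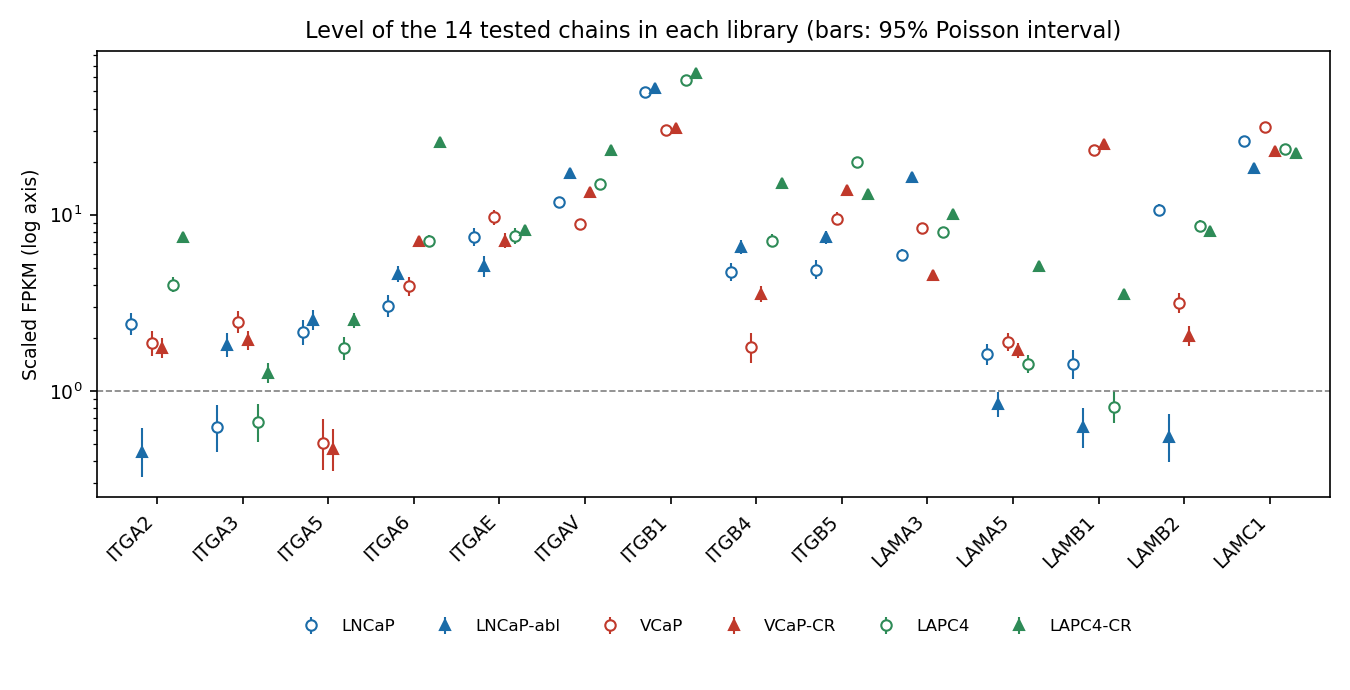
Level of the 14 tested chains in each library, in scaled FPKM on a log axis; open circles are castration-sensitive and filled triangles castration-resistant libraries, and bars are exact 95% Poisson intervals of the counts. ITGB1 was the highest chain in 5 of the 6 libraries, LAMB1 stood apart in the VCaP libraries, and LAMB2 was under the dashed line at 1 in LNCaP-abl.

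ITGB1, the beta chain shared by most integrins of epithelial cells, was at 49.4 in LNCaP and 52.5 in LNCaP-abl, at 30.3 and 31.2 in VCaP and VCaP-CR, and at 57.9 in LAPC4 and 63.9 in LAPC4-CR. It took 62.5% to 82.0% of the summed level of the 7 beta chains. In each library it was higher than every alpha chain, so that the alpha chain had the lower level in each pair with ITGB1.

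ITGAV, the alpha chain of receptors for the RGD sequence of fibronectin and vitronectin, was at 11.8, 8.83 and 15.0 in LNCaP, VCaP and LAPC4 and at 17.3, 13.3 and 23.4 in LNCaP-abl, VCaP-CR and LAPC4-CR. Each resistant library was thus above its parent, by log2 changes of 0.51, 0.55 and 0.61 on the log2(scaled FPKM + 1) scale. The SD over the 3 pairs was 0.05, and ITGB1 had the same SD with smaller changes. After the median change of genes of similar length was subtracted in each pair, the ITGAV changes were 0.32, 0.44 and 0.40.

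ITGB5, a partner of ITGAV, was higher in the resistant library of the LNCaP and VCaP pairs only. It was at 4.88 in LNCaP and 7.42 in LNCaP-abl, at 9.47 and 13.8 in VCaP and VCaP-CR, and at 19.9 in LAPC4 and 13.1 in LAPC4-CR. The LAPC4 pair therefore ran the other way, with a log2 change of -0.57.

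ITGA6, the main laminin-binding alpha chain of epithelia (ENSG00000091409, chromosome 2, 173000328 to 173079427, hg18), was at 3.02 in LNCaP and 4.62 in LNCaP-abl, at 3.92 and 7.08 in VCaP and VCaP-CR, and at 7.05 in LAPC4 and 25.7 in LAPC4-CR. ITGB4, which pairs only with ITGA6 and carries the hemidesmosome (ENSG00000132470, chromosome 17, 71225069 to 71265493), was at 4.73 and 6.56, at 1.76 and 3.54, and at 7.12 and 15.1 in the same order. Both chains were higher in each resistant library, and for both the exact 95% Poisson intervals did not overlap within any of the 3 pairs. The same held for ITGAV, ITGB5, LAMA3, LAMB1 and the untested LAMA1, some of which ran in opposite directions between pairs. These intervals cover counting error only, and the share of all genes without overlap was not computed. LAPC4-CR had the highest level of both ITGA6 and ITGB4. The log2 change was 0.48, 0.72 and 1.73 for ITGA6 and 0.40, 0.72 and 0.99 for ITGB4, with the pairs in the order above.

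ITGA6 and ITGAV were higher in every resistant library, so the 250 bases before a RefSeq start of each (GRCh38.p14, plus strand) are shown. Where RefSeq lists several starts, the window with the higher GC content was taken. Capitals mark the GC box GGGCGG and the androgen response half-site AGAACA, searched on both strands.
ITGA6, chr2:172427336-172427585: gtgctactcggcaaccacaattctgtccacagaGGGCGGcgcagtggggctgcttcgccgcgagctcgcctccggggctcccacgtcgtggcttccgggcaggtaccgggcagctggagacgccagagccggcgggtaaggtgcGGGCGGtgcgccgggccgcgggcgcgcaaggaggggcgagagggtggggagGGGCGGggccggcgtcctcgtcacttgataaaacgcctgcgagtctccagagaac
ITGAV, chr2:186589806-186590055: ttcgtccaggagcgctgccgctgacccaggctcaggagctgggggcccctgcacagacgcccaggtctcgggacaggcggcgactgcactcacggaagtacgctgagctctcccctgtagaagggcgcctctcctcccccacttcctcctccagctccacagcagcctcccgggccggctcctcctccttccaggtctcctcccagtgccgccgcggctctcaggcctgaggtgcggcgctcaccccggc
The ITGA6 window held 3 GC boxes and 0 half-sites. The window before the other ITGA6 start, which adjoins it upstream (chr2:172427086-172427335, 50.8% GC) and is not printed, held 0 GC boxes and 2 half-sites. It also held 1 TATAAA, on the strand opposite to the gene. Both ITGAV windows held 0 of either, and the GC content of the printed one was 70.8% against 71.6% for ITGA6. Of 35116 windows of this length in the table, 42.6% held a GC box and 12.4% a half-site. Among the 33 windows of the chains described here, 17 held a GC box and 4 a half-site. These matches describe the letters of the windows alone.

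ITGA3, the other laminin-binding alpha chain that was tested, was low. It was at 0.619 in LNCaP and 1.82 in LNCaP-abl, at 2.46 and 1.93 in VCaP and VCaP-CR, and at 0.661 in LAPC4 and 1.27 in LAPC4-CR. VCaP and VCaP-CR were the highest. ITGA7, the muscle laminin receptor, was at most 0.366.

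ITGA2, a collagen receptor, was at 2.40 in LNCaP and 0.451 in LNCaP-abl, at 1.86 and 1.75 in VCaP and VCaP-CR, and at 3.998 in LAPC4 and 7.44 in LAPC4-CR. It was 5.32-fold lower in LNCaP-abl than in its parent and 1.86-fold higher in LAPC4-CR. The other collagen receptor chains were low. ITGA1 was highest in VCaP, at 1.61, and its locus overlaps the entry of PELO. ITGA10 and ITGA11 were at most 0.460 and 0.553.

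ITGA5, the fibronectin receptor chain, was at 2.15 and 2.53 in LNCaP and LNCaP-abl and at 1.75 and 2.51 in LAPC4 and LAPC4-CR. In VCaP and VCaP-CR it was at 0.503 and 0.466, below the other 4 libraries. FN1, its ligand, was at 0.452 and 0.536 in the VCaP libraries, at 5.09 in LNCaP and 2.004 in LNCaP-abl, and at 5.08 in LAPC4 and 0.356 in LAPC4-CR.

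ITGAE, the alpha chain by which intraepithelial lymphocytes bind E-cadherin, was at 7.49 and 5.09 in the LNCaP pair, 9.64 and 7.12 in the VCaP pair, and 7.59 and 8.17 in the LAPC4 pair, parent first. Its only known partner ITGB7 was between 0.371 and 1.03. The locus of ITGAE overlaps the entry of GSG2, which was at 4.87 to 8.14, and whether the counting separated the overlapping genes is not given in the sources used here. The 5 chains of the leukocyte beta-2 integrins (ITGAL, ITGAM, ITGAX, ITGAD and ITGB2) were at most 0.627.

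ITGB6, an epithelial partner of ITGAV that is known from wound edges and carcinomas, was at 0.202 and 0.329 in the LNCaP pair, parent first, at 0.269 and 0.283 in the VCaP pair, and at 0.214 in LAPC4. In LAPC4-CR it was at 2.25, 10.5-fold above the parent, on 345 counts (95% Poisson interval 309.6 to 383.4) against 18 (10.7 to 28.4). Its mean was under 1, so it was not tested. ITGB6, ITGA3 and ITGA5 were chosen for description after their values were seen.

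The levels of the chains gave a list of possible receptors. Of 24 alpha-beta pairs known from the literature, 22 had both genes measured, and a pair was counted where its lower chain was at 1 scaled FPKM or more. By this count 6 pairs were present in each of LNCaP and LAPC4, 7 in each of LNCaP-abl, VCaP and VCaP-CR, and 8 in LAPC4-CR. ITGAV/ITGB1, ITGAV/ITGB5, ITGA6/ITGB1 and ITGA6/ITGB4 were present in all 6 libraries, and 12 pairs in none. ITGAV/ITGB1 had the highest lower chain in both LNCaP libraries. It shared that place with ITGAV/ITGB5 in VCaP, VCaP-CR and LAPC4, where ITGAV was the lower chain of both, and came after ITGA6/ITGB1 (25.7) in LAPC4-CR. RNA levels do not show which receptors were assembled.

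**Figure D2:**
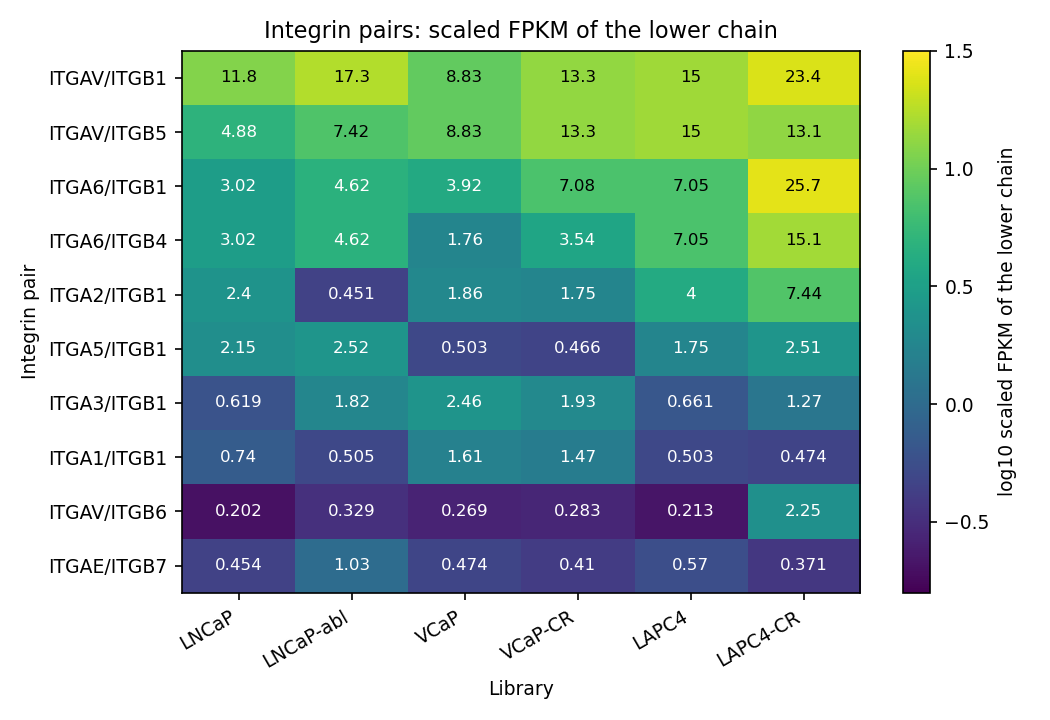
Scaled FPKM of the lower chain of each of the 10 integrin pairs that reached 1 in at least 1 library; columns are libraries and colour is on a log scale. ITGA2/ITGB1 was under 1 in LNCaP-abl only, ITGA5/ITGB1 in the VCaP libraries only, and ITGAV/ITGB6 was above 1 in LAPC4-CR only.

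In ITGA6/ITGB4 the chain with the lower RNA level differed between libraries. ITGB4 was the lower chain in VCaP, VCaP-CR and LAPC4-CR, where the ratio of ITGA6 to ITGB4 was between 1.70 and 2.22. ITGA6 was the lower chain in LNCaP and LNCaP-abl, with ratios of 0.639 and 0.704. In LAPC4 the chains were nearly level (ratio 0.990), and their Poisson intervals overlapped. Because ITGA6 also pairs with ITGB1, the ratio does not show which chain limits the receptor.

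Among the laminins, LAMC1, the gamma chain of most laminins, was high everywhere. It was at 26.2 and 18.4 in the LNCaP pair, 31.4 and 22.9 in the VCaP pair, and 23.7 and 22.3 in the LAPC4 pair, parent first. Each resistant library was below its parent, by log2 changes of -0.49, -0.44 and -0.08. LAMC3, another gamma chain, was at most 0.539.

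LAMA3 was the main alpha chain, with 64.2% to 92.6% of the summed alpha chains. It was at 5.90 in LNCaP and 16.4 in LNCaP-abl, at 8.37 and 4.51 in VCaP and VCaP-CR, and at 7.96 in LAPC4 and 10.1 in LAPC4-CR. LNCaP-abl was the highest library and VCaP-CR the lowest, so the LNCaP and VCaP pairs ran in opposite directions (log2 changes of 1.34 and -0.77).

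LAMA5, the alpha chain of the laminins of most mature basement membranes, was at 1.61 and 0.840 in the LNCaP pair, parent first, 1.90 and 1.70 in the VCaP pair, and 1.42 and 5.12 in the LAPC4 pair. LAPC4-CR thus stood above the other 5 libraries, 3.60-fold over its parent. The locus of LAMA5 overlaps that of ADRM1, which was at 13.0 to 40.7.

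The main beta chain differed between libraries. LAMB1 (ENSG00000091136, chromosome 7, 107351480 to 107430936) was at 23.1 in VCaP and 25.1 in VCaP-CR, against 1.41 in LNCaP, 0.620 in LNCaP-abl, 0.814 in LAPC4 and 3.52 in LAPC4-CR. LAMB2, the alternative beta chain (ENSG00000172037, chromosome 3, 49133551 to 49145555), was at 3.16 in VCaP and 2.05 in VCaP-CR, at 10.7 in LNCaP and 0.545 in LNCaP-abl, and at 8.64 in LAPC4 and 8.05 in LAPC4-CR. LAMB1 was 83.5% and 86.1% of the summed beta chains in VCaP and VCaP-CR, while LAMB2 was 81.9% in LNCaP, 79.7% in LAPC4 and 64.0% in LAPC4-CR. The locus of LAMB1 overlaps that of DLD, which was at 13.9 to 38.5, well above LAMB1 in the LNCaP and LAPC4 libraries.

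LNCaP-abl had little of any laminin beta chain. LAMB2 was 19.6-fold lower than in LNCaP, on 43 counts (95% Poisson interval 31.1 to 57.9) against 688 (637.5 to 741.4), and LAMB1 was 2.28-fold lower. The highest beta chain there was LAMB3 at 0.854. The beta chains of LNCaP-abl summed to 2.28, against 10.8 to 29.2 in the other 5 libraries, while LAMA3 had its highest level there.

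**Figure D3:**
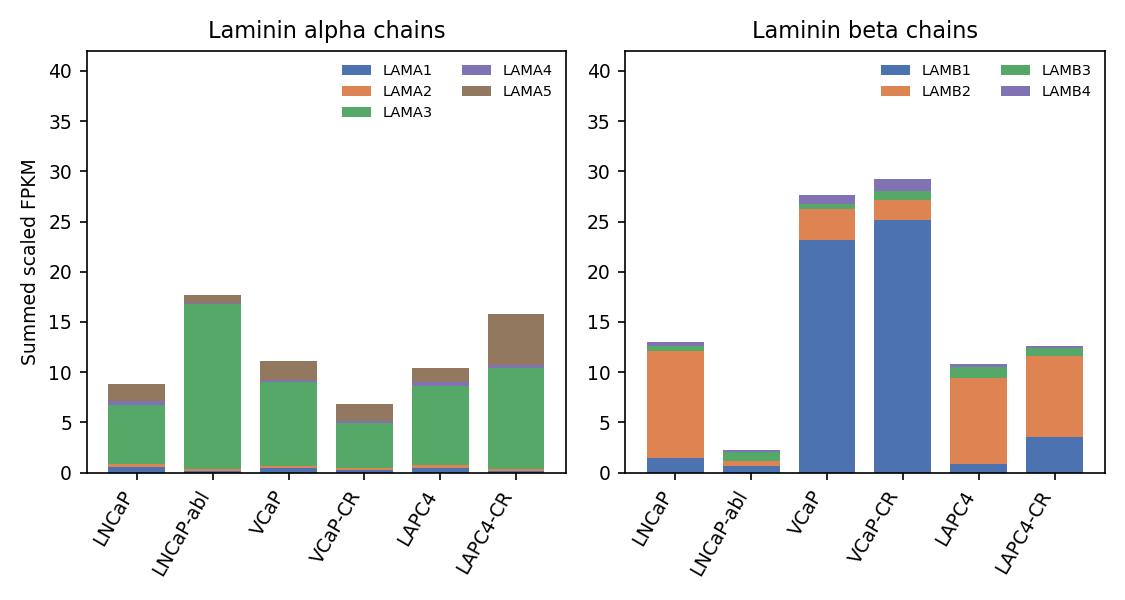
Summed scaled FPKM of the laminin alpha and beta chains in each library, stacked by chain. LAMB1 made up most of the beta chains in VCaP and VCaP-CR and LAMB2 in LNCaP, LAPC4 and LAPC4-CR; the beta chains of LNCaP-abl summed to 2.28.

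Of 13 known laminin trimers examined, those with all 3 chains at 1 scaled FPKM or more numbered 0 in LNCaP-abl, 2 in LAPC4 and 4 in each of the other libraries. Laminin-321 and laminin-521 were present by this count in the 5 libraries other than LNCaP-abl, and laminin-311 and laminin-511 in LNCaP, VCaP, VCaP-CR and LAPC4-CR. At a level of 0.5, LNCaP-abl had 4 trimers, with LAMB2 at 0.545 or LAMB1 at 0.620 as the beta chain.

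The 23 chains that were not tested included 16 that never reached 1 scaled FPKM, among them LAMA1, LAMA2 and LAMA4. Their median level per library lay between 0.260 and 0.395. The median of the 10 leukocyte and platelet markers lay between 0.179 and 0.524, a range that holds that of the chains. Such levels were therefore also seen for genes of cell types that a cell line does not hold. LAMA1, the embryonic alpha chain, was at 0.546 and 0.154 in the LNCaP pair, 0.4998 and 0.2998 in the VCaP pair and 0.411 and 0.161 in the LAPC4 pair, parent first; the part of this low level in that difference was not tested.

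Whether chains changed with the state on average over the lines was tested with edgeR's quasi-likelihood test over all 17437 tested genes, with the parental line as a block. At an adjusted p under 5%, 0 of the 14 chains were higher and 0 lower in the resistant libraries, against 0% of all tested genes in either direction. The adjusted p of the 14 chains ran from 0.524 to 0.929. At an unadjusted p under 0.05, 3 of the 14 were higher, which were ITGA6, ITGB4 and ITGAV (4.93% of all tested genes), and 0 were lower (3.99%). DESeq2 also called 0 of the 14 at an adjusted p under 5%, although it called 94 genes higher and 64 lower in all. At an unadjusted p under 0.05 it had the same 3 higher chains and LAMB2 as 1 lower chain.

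ITGA6 had an edgeR log2 change of 1.12 (SE 0.32, unadjusted p 0.010, adjusted p 0.524). ITGB4 had 0.86 (SE 0.27, edgeR unadjusted p 0.015, adjusted p 0.524). For ITGAV the edgeR log2 change was 0.60 (SE 0.24, unadjusted p 0.040, adjusted p 0.551). All 3 were higher in 3 of 3 pairs, and so was ITGB1, at an edgeR log2 change of 0.09 (SE 0.24). These 4 of 14 chains stand against 16.4% of all tested genes that were higher in 3 of 3 pairs. With the gene length trend removed, ITGB1 was no longer higher in the LNCaP pair (log2 change -0.07). LAMB2 and LAMC1 were lower in 3 of 3 pairs, with edgeR log2 changes of -1.47 (SE 0.82) and -0.35 (SE 0.25), 2 of 14 chains against 17% of all tested genes. Some of these differences had overlapping Poisson intervals, namely ITGB1 in the LNCaP and VCaP pairs and LAMB2 and LAMC1 in the LAPC4 pair. The LAMB2 value rested on the LNCaP pair: without the LNCaP pair it was -0.36, against -2.13 without the VCaP pair and -2.40 without the LAPC4 pair. Without the LAPC4 pair none of the 3 higher chains had an unadjusted p under 0.05, and the ITGA6 change was 0.74. Without the VCaP pair ITGB4 and ITGAV no longer passed this level and ITGA3 did, and without the LNCaP pair ITGAV no longer passed it. With protein-coding genes alone ITGA6 and ITGB4 passed it and ITGAV did not, and without the line as a block 0 chains passed it.

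Within single pairs there was 1 library per state and hence no test. A log2 change of at least 1 in size, which is 2-fold on the log2(scaled FPKM + 1) scale, was taken as a mark. In the LNCaP pair LAMA3 was past it upward (1 of 14 tested chains, against 6.72% of all tested genes) and ITGA2 and LAMB2 downward (2 of 14, against 7.88%). In the VCaP pair 0 of 14 were past it in either direction (2.57% and 2.37% of all tested genes). In the LAPC4 pair ITGA6, LAMA5 and LAMB1 were past it upward (3 of 14, against 5.78%), with 0 of 14 downward (6.86%). ITGB6 was a further one outside the tested chains, and ITGB4 at 0.99 was just inside the mark. The median log2 change of the 14 chains was 0.12, -0.05 and 0.40 in these pairs in turn. For the 11343 tested protein-coding genes it was 0.13, -0.00 and 0.08, and for all 17437 tested genes it was -0.01, -0.01 and 0.00.

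**Figure D4:**
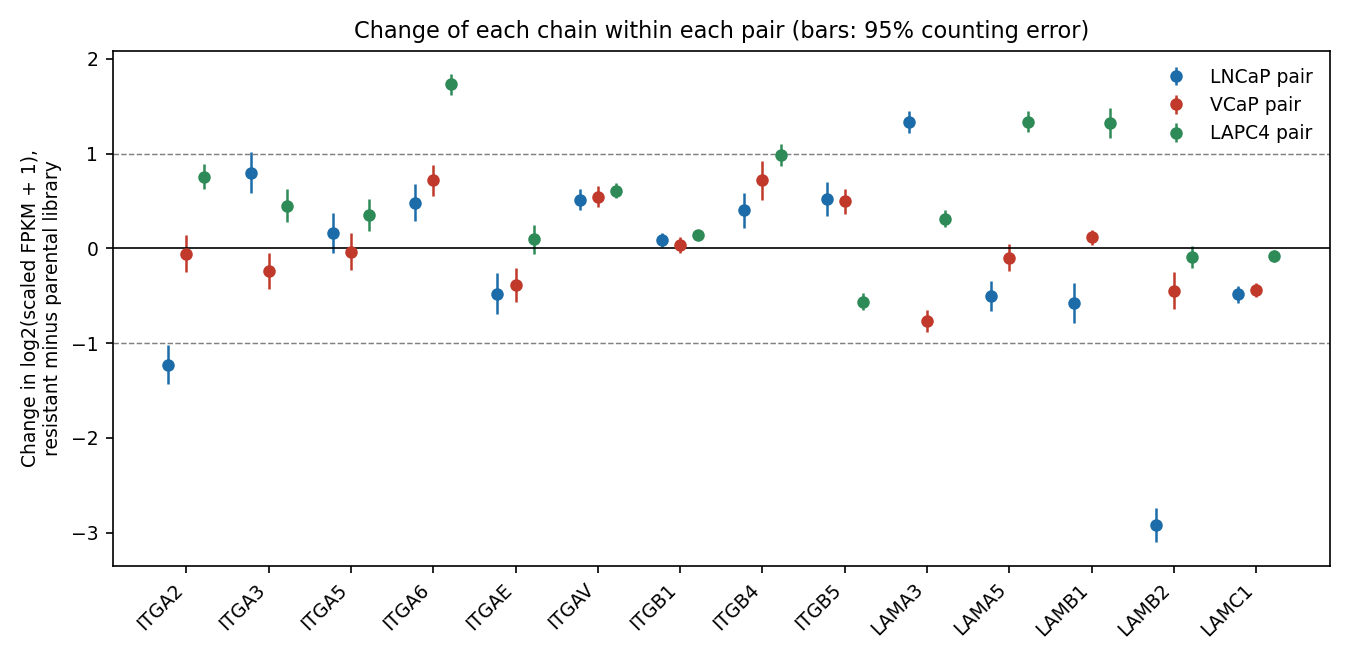
Change in log2(scaled FPKM + 1) of the 14 tested chains, resistant minus parental library, in each pair; bars are 95% intervals for counting error alone and dashed lines mark a 2-fold change. ITGAV moved by 0.51 to 0.61 in each pair, ITGA6 most in the LAPC4 pair (1.73), and LAMB2 by -2.92 in the LNCaP pair.

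Differences between the 3 lines were tested in the same edgeR model, with the state as a covariate. The 2 libraries of a line are not replicate cultures, so these p-values measure the spread that is left after a common change with the state. Of the 14 chains, 4 differed between lines at an adjusted p under 5%, which were LAMB1, ITGB4, ITGA5 and ITGA6 (12.1% of all tested genes). LAMB1 (edgeR adjusted p 0.016) was higher in the VCaP line by a log2 difference of 4.53 over LNCaP and 3.57 over LAPC4. ITGB4 (edgeR adjusted p 0.024) was lower in the VCaP line by -1.14 against LNCaP and -2.06 against LAPC4. ITGA5 (edgeR adjusted p 0.025) was lower in the VCaP line by -2.24 and -2.12. ITGA6 (edgeR adjusted p 0.039) was higher in the LAPC4 line by 1.91 over LNCaP, and the VCaP line was lower than LAPC4 by -1.41. For ITGA6 only LAPC4-CR, at 25.7, stood apart, as LAPC4 at 7.05 was level with VCaP-CR at 7.08.

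The adjusted p between lines of the other 10 chains lay between 0.097 for ITGB5 and 0.715 for LAMC1. Among them, both VCaP libraries were below the other 4 for ITGB1 and above them for ITGA3. Both LAPC4 libraries were above the other 4 for ITGB1 and ITGA2, and both LNCaP libraries below them for ITGB5. None of these chains passed the test, and the share of all genes separated in this way was not computed. Without the VCaP pair 0 chains were called between the remaining lines, and without the LAPC4 pair LAMB1 and ITGA5 were. Without the LNCaP pair there were 6 calls. Limma called LAMB1 and ITGB4 only, and with protein-coding genes alone ITGA6 had an edgeR adjusted p of 0.058.

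Genes around the integrins were described from lists of 88 measured genes. Adhesion plaque proteins, which join integrins to actin and to kinases, had 30 of 40 genes tested. In edgeR 0 of the 30 passed an adjusted p under 5% in either direction. At an unadjusted p under 0.05 1 was higher and 2, FERMT2 and SRC, were lower (4.93% and 3.99% of all tested genes). The higher one was NEDD9, a scaffold of integrin signalling, at 0.751 and 3.80 in the LNCaP pair, 9.71 and 30.5 in the VCaP pair and 0.516 and 2.84 in the LAPC4 pair, parent first (edgeR log2 change 2.14, SE 0.28, adjusted p 0.347). It was more than 2-fold higher in 3 of 3 pairs. CRK, an adaptor of integrin signalling, was between 20.8 in LNCaP and 32.0 in VCaP-CR. FLNA, an actin crosslinker that binds beta-chain tails, was at 14.2 and 27.5 in the LNCaP pair, 10.2 and 9.75 in the VCaP pair and 32.8 and 32.4 in the LAPC4 pair, parent first, so that LNCaP-abl alone stood well above its parent. In the LNCaP pair 6 of the 30 were 2-fold higher and 3 lower (6.72% and 7.88% of all tested genes), in the VCaP pair 1 and 1 (2.57% and 2.37%), and in the LAPC4 pair 2 and 0 (5.78% and 6.86%). FERMT1, an epithelial activator of integrins, was 1 of the latter, at 0.407 in LAPC4 and 7.49 in LAPC4-CR. FERMT2 ran the other way, at 7.1 in LAPC4 and 3.2 in LAPC4-CR, and was lower in each resistant library.

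Hemidesmosome and tetraspanin genes had 7 of 8 tested, and in edgeR 0 of 7 passed an adjusted p under 5%; at an unadjusted p under 0.05 DST and ERBB2IP were higher and 0 were lower (4.93% and 3.99% of all tested genes). DST, which links ITGB4 to keratin filaments, was at 0.589 and 4.75 in the LNCaP pair, 1.42 and 3.04 in the VCaP pair and 0.476 and 1.09 in the LAPC4 pair, parent first. It was higher in 3 of 3 pairs. COL17A1, a transmembrane collagen of hemidesmosomes, was at most 0.630. The 3 highest were the tetraspanins CD9, CD151 and CD81, and CD151, a partner of laminin-binding integrins, was at 21.3, 36.3 and 35.2 in LNCaP, VCaP and LAPC4 and at 31.3, 35.5 and 56.9 in their resistant lines. CD9 was between 69.0 in LNCaP and 155 in LAPC4-CR, and CD81 between 15.9 in LNCaP and 25.2 in VCaP-CR.

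Matrix ligands other than laminins had 10 of 27 genes tested, 0 of them passing an adjusted p under 5% in edgeR; at an unadjusted p under 0.05 CDH1 was higher (4.93% of all tested genes) and COL4A5 and ICAM1 lower (3.99%). CDH1, which is E-cadherin and the ligand of ITGAE/ITGB7, was at 55.4 and 120 in the LNCaP pair, 33.0 and 57.8 in the VCaP pair and 66.2 and 119 in the LAPC4 pair, parent first (edgeR log2 change 0.93, SE 0.24, adjusted p 0.524). AGRN and THBS1 were the next highest by mean level. AGRN, a basement membrane proteoglycan that binds laminin, was at 3.23 and 12.9 in the LNCaP pair, 8.03 and 7.95 in the VCaP pair and 9.04 and 15.5 in the LAPC4 pair. THBS1, a matrix glycoprotein, differed between lines (edgeR adjusted p 0.023) and was at 1.10 and 1.34 in the LNCaP libraries, 14.3 and 10.1 in the VCaP libraries and 5.64 and 18.4 in the LAPC4 libraries. TNC, the ligand tenascin-C, was at 5.18 in LNCaP-abl and at most 0.306 in the other 5 libraries. Other basement membrane genes differed in level. COL4A5, a collagen IV chain, was at 7.96 and 5.25 in the LNCaP pair, 4.19 and 2.07 in the VCaP pair and 3.25 and 1.13 in the LAPC4 pair, and HSPG2, perlecan, was at 5.77 in VCaP, 1.59 in VCaP-CR and at most 0.572 elsewhere. NID1 was at most 0.327, NID2 at most 0.633 and COL4A1 at most 0.424.

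Laminin receptors other than integrins had 10 of 13 genes tested, with 0 passing an adjusted p under 5% in edgeR; at an unadjusted p under 0.05 UTRN was higher (4.93% of all tested genes) and BCAM and RPSA lower (3.99%). RPSA, a ribosomal protein also described as a laminin receptor, was at 126 and 66.1 in the LNCaP pair, 178 and 116 in the VCaP pair and 115 and 88.9 in the LAPC4 pair, parent first. BCAM, a receptor for LAMA5-containing laminins, was high in the VCaP pair alone, at 56.7 in the parent and 17.7 in the resistant line, and did not exceed 1.60 elsewhere. SDC1, a heparan sulfate proteoglycan of epithelial cells, was at 9.88 and 33.5 in the LNCaP pair, 47.9 and 28.9 in the VCaP pair and 11.2 and 22.02 in the LAPC4 pair, so the VCaP pair ran the other way. SDC4, a heparan sulfate co-receptor of adhesions, was at 7.18 in LNCaP and 43.2 in LNCaP-abl but nearly level in the other pairs, at 11.6 and 11.3 in VCaP and VCaP-CR and 73.7 and 68.0 in LAPC4 and LAPC4-CR. DAG1, dystroglycan, was between 15.0 and 24.6.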

How the data were processed

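RNA was measured in 6 cell lines with 1 library each, from RNeasy columns and the SOLiD Total RNA-Seq kit per the labels' protocols. The deposited tables give whole-number counts per gene and FPKM, per the file headers, and HTSeq and hg18 are named in the submitters' processing notes; the sources used here name no aligner, annotation release or strand setting. The deposited FPKM was rebuilt within 1% for 100% of genes from counts, length and total. Printed starts have 1 added, because the tables count from 0.

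Entries that share a symbol were summed, 1349 small RNA symbols were left out, and FPKM was divided by a factor per library (0.863 to 1.08), the median ratio to the geometric mean of 12526 genes at 1 or more in all libraries. The tests took the 17437 genes whose mean reached 1 scaled FPKM. EdgeR 4.0.16 (quasi-likelihood, TMM, R 4.3.3) tested the counts, with Benjamini-Hochberg adjustment over all tested genes; DESeq2 1.42.0 and limma 3.58.1 were alternatives. SEs were derived from the F statistic. On simulated counts, edgeR recovered 84% of 100 genes changed 4-fold between states and 57% of 100 changed 4-fold in 1 line, with 2 and 0 false calls. The simulation gave all genes the same dispersion, no other line differences and the same state change in every line. Only genes with higher counts were changed in it. These shares therefore do not give the power in the real data, where NEDD9 at an edgeR log2 change of 2.14 had an adjusted p of 0.347.

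The line names pair the libraries. Deviations from the group means correlated at 0.45 (LNCaP), 0.70 (VCaP) and 0.57 (LAPC4) within pairs and at -0.45 to -0.06 between lines. The deviations of each gene cancel out within a state, so the negative values between lines follow in part from this centering. The labels do not say how many cultures a library came from. Poisson intervals (95%, exact) cover counting error only.

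Chains described singly were those at 5 scaled FPKM or more in at least 1 library or changed 2-fold with a mean of at least 1; of each list, the 3 highest by mean and any gene changed 2-fold the same way in all pairs were named, NEDD9 also because earlier results name it, and the other genes were named after their values were seen. Some genes that these rules name are not reported here. The members and lists were chosen with earlier results of these data known.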

Additional observations from a re-analysis of the deposited data

Results flagged for a closer look

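For 4 chains a log2 change of at least 1 in size in 1 pair stood against a change in the opposite direction in another, with both changes beyond counting error. Each pair has 1 library per state, so the difference between pairs was not tested.

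ITGA2 was lower in LNCaP-abl (-1.23) and higher in LAPC4-CR (0.76), a difference of -1.98 (LNCaP pair minus LAPC4 pair). LAMA3 was higher in LNCaP-abl (1.34) and lower in VCaP-CR (-0.77), a difference of 2.10 (LNCaP pair minus VCaP pair). LAMA5 was lower in LNCaP-abl (-0.50) and higher in LAPC4-CR (1.34), a difference of -1.84. LAMB1 was lower in LNCaP-abl (-0.58) and higher in LAPC4-CR (1.32), a difference of -1.89.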

How the results depend on the processing

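With 1 library per line and state, a change within a pair cannot be set against a replicate, and the 23 chains under a mean of 1 scaled FPKM were tested only in the alternative without a filter. The adjusted calls between states stayed at 0 among the chains under all 10 alternatives. At an unadjusted p under 0.05, the 3 higher chains became 0 without the replicate block, 4 without a filter (ITGB6 added), 2 with protein-coding genes alone and 0 to 2 with 1 pair left out; the 0 lower chains became 1 in DESeq2 (LAMB2), 2 without a filter (LAMA1 and LAMB2) and 0 to 2 with 1 pair left out. The pairing changed no adjusted call. Over all genes, the 0 higher and 0 lower adjusted calls between states became 102 and 66 without a filter, and 0 to 58 and 1 to 37 with 1 pair left out. The 4 chains called between lines became 2 in limma, 9 of 37 without a filter and 0 to 6 with 1 pair left out, and over all genes 2103 such calls became 499 to 3150 with 1 pair left out. Leaving out small RNA genes by class, chosen after seeing the data, changed neither count of chains.

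Some state changes of chains changed sign, each with an adjusted p far from the threshold. ITGA2 (-0.44) was 0.23 without the block and -1.20 to 0.41 with 1 pair left out, and ITGB1 (0.09) was -0.0048 among protein-coding genes alone. With 1 pair left out, ITGB5 ran from -0.032 to 0.58, with -0.0039 without the VCaP pair, LAMA3 from -0.27 to 0.91, LAMA5 from -0.54 to 0.85 and LAMB1 from -0.49 to 1.08. The cause was not tested.

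Counts at 2-fold within pairs moved mainly with the pseudocount. For the chains in the LNCaP pair, 1 higher became 2 at 0.25 and 0 at 5, and 2 lower became 1 at 5; in the LAPC4 pair 4 higher became 1 at 5. For the 88 list genes, at a pseudocount of 5 the 14 higher and 4 lower of the LNCaP pair became 8 and 1, the 4 lower of the VCaP pair 1, and the 2 lower of the LAPC4 pair 1. At 0.25 the 4 lower of the LNCaP pair became 7, and the 3 higher and 2 lower of the LAPC4 pair 10 and 6, the last also being 6 with the length trend removed.

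At a level of 5 scaled FPKM, integrin pairs numbered 1 in LNCaP, 2 in each of LNCaP-abl and VCaP, 3 in VCaP-CR and 5 in LAPC4-CR. At that level laminin trimers numbered 1 in each of LNCaP, VCaP and LAPC4, 0 in VCaP-CR and 2 in LAPC4-CR. At 0.5, trimers numbered 7 in LNCaP and 4 in each of LNCaP-abl and LAPC4.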
